A study of Magallana angulata with 8 samples.

Results

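The collagen genes of the oyster *Crassostrea angulata* were taken as the genes whose Blast annotation contained "collagen" or "prolyl 4-hydroxylase", without any collagenase, which gave 116 of the 25647 genes in the expression table. Of these, 108 were annotated as collagen chains or collagen-like proteins. The others were 6 prolyl 4-hydroxylase subunits, 1 lysyl hydroxylase and 1 ceramide transfer protein, whose annotation carries the word collagen although it moves ceramide between membranes and is no collagen. The chains were named by similarity to chains of other animals, so a name such as alpha-3(VI) marks the best match and not an orthologous chain. Coding lengths inferred from the values ran from 336 to 12963 bp, with a median of 1185 bp. The most abundant gene, OYG_10012008_10011384, had 612 bp. How much of a chain each gene model covers was not tested. By name, 35 were type VI chains, 27 were fibril-associated (FACIT) chains of the kinds IX, XII, XIV and related types, 14 were type VIII or X chains, 12 were short-chain collagen C4, 8 were type IV chains, 8 were collagen-like proteins, 3 were fibrillar alpha-2(I) chains and 1 was a type VII chain.

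Collagens are extracellular proteins in which chains wind into a triple helix. Prolyl 4-hydroxylase modifies prolines of the nascent chains so that the helix is stable, and lysyl hydroxylase prepares lysines for sugars and cross-links. Fibrillar chains form the fibrils of connective tissue, FACIT chains sit on the surface of fibrils, type IV chains build the network of basement membranes, and type VI chains form beaded microfilaments in vertebrates. In bivalves the gill is a ciliated organ of filaments held on a connective tissue skeleton, and the mantle is a muscular sheet whose epithelium lays down the shell.

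Each of the 8 libraries was made from RNA pooled from 6 farmed oysters of 9 months of age, and each condition had 1 library. M2-H and M2-L were mantles, and G2-H and G2-L gills, of oysters kept for 30 days in 30 µg/L Cu, with the highest (H) and the lowest (L) Cu concentrations in their tissues. M1-H and M1-L were mantles, and G1-H and G1-L gills, of oysters that were dissected without exposure and divided by their Cu concentrations in the same way. The exposed oysters were also held in tanks, which the unexposed were not, so the effects of Cu and of holding cannot be told apart. The 4 values of a tissue are given in the order M2-H, M1-H, M2-L and M1-L for mantle and G2-H, G1-H, G2-L and G1-L for gill. They are RPKM (reads scaled to the coding length of a gene and to a read total of the library).

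The read totals behind the RPKM values, inferred from the values themselves, were 2015375 to 2589524 per library. The study reports more mapped reads for each library. The collagen genes took 0.684% of the inferred total in M2-L (exact Clopper-Pearson 95% interval 0.674 to 0.695%) and up to 1.34% in G2-H (1.32 to 1.35%). These intervals cover counting error only. M2-L stood apart in level, with a median gene at 2.84 on the log2 scale against 3.25 to 3.44 in the other 7 libraries. Of 36 tested cilia genes, 24 were lower and 0 higher in mantle, and of 8 muscle genes, 7 were higher in mantle. The list of mantle and shell genes was mixed, with 11 of 34 tested genes higher and 6 lower in mantle, the lower ones being chitin synthases and perlucins. G2-L was the highest gill for some genes of the mantle and not for the list, which summed to 673 RPKM in G2-L, against 739 to 839 RPKM in the other gills. The 8 tyr-3 tyrosinase genes that were higher in mantle, singled out after their values were seen, summed to 77.7 RPKM in G2-L, against 0.622 to 4.19 RPKM in the other gills and 249.8 to 1650.3 RPKM in the mantles, and the part of this RNA in the results that involve G2-L was not tested.

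Most collagen genes were rare. Between 83 and 93 of the 116 had reads in a given library, 28 had fewer than 10 reads over all 8 libraries and 2 had none. The 76 genes with a mean of at least 1 RPKM were tested, and the 40 below it were not. The untested were 13 FACIT chains, 10 type VI chains, 8 short-chain collagens, 4 chains of types VIII and X, 3 collagen-like proteins, 1 prolyl 4-hydroxylase subunit and 1 type IV chain. A gene high in only 1 condition could pass through that condition alone. Of the classes, type VI had the highest summed RPKM in every library. Its 35 chains together had 2832 to 3349 RPKM in mantle and 4800 to 7671 RPKM in gill. The 3 genes with the highest mean level held 35.2 to 46.0% of the summed RPKM of the collagen genes in mantle and 64.8 to 67.5% in gill.

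**Figure D1:**
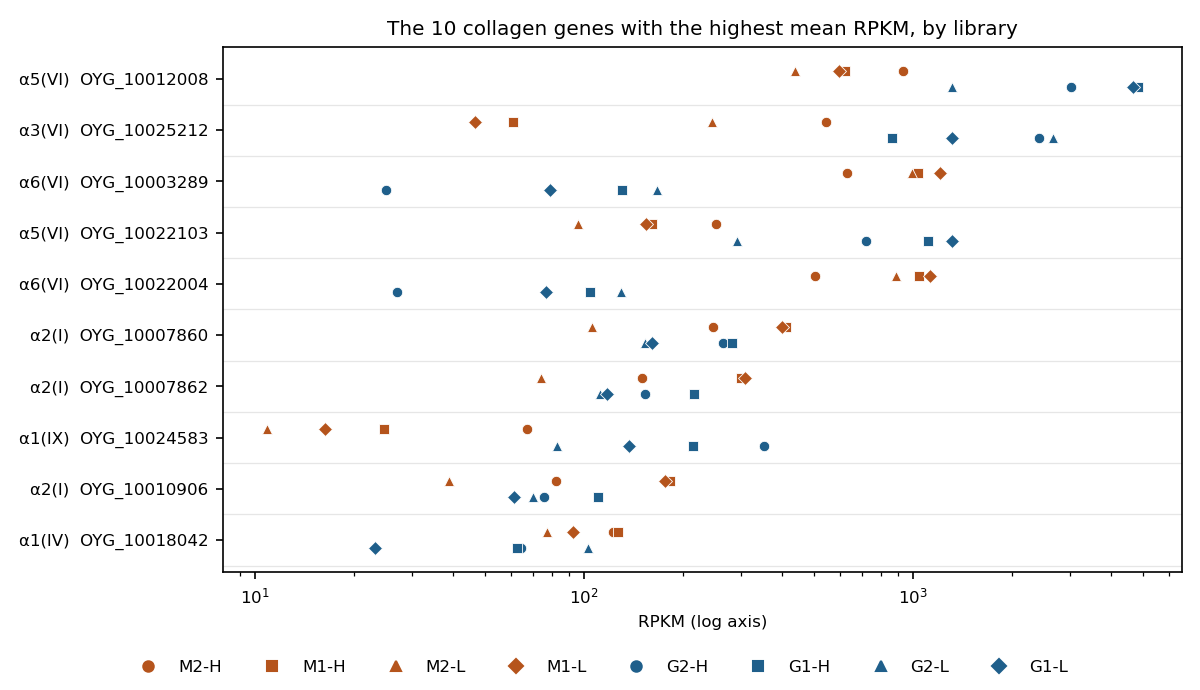
Level (RPKM, log axis) of the 10 collagen genes with the highest mean level in each of the 8 libraries, mantle above gill for each gene. The alpha-5(VI) chain OYG_10012008_10011384 lay between 436 and 932 RPKM in mantle and between 1312 and 4832 RPKM in gill, and both alpha-6(VI) chains were high in mantle and low in gill.

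The mantle and the gill of the same oyster pool were compared across the 4 pools, with the change given as the log2 of RPKM plus 0.1 in mantle minus that in gill. Of the 76 genes tested, 30 passed an adjusted p of 0.05 in limma, 14 higher and 16 lower in mantle. Among all 20123 genes tested, 14.8% passed, 5.67% higher and 9.18% lower. The tissues expressed different chains rather than more or less of all of them, and within type VI itself 7 of 25 tested chains were higher and 7 lower in mantle. The median change of the collagen genes was 0.21, against -0.21 over all genes, so that each change below can be read against this shift. With 1 pool left out, 19 genes passed without 1-H, 19 without 1-L and 18 without 2-H, and 29 passed without 2-L, the pool of M2-L and G2-L. Among the 60 collagen genes with a mean of at least 1 RPKM in each tissue, 22 passed, against 13.5% of all such genes. In all 4 pools, 9 genes were at least 2-fold higher in mantle (11.8%, against 4.58% of all genes) and 16 at least 2-fold lower (21.1%, against 6.06%). With each library centred on its median these counts were 13 and 15. The exact counting interval of the ratio was clear of no change in every pool for 5 of the 9 and 13 of the 16.

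**Figure D2:**
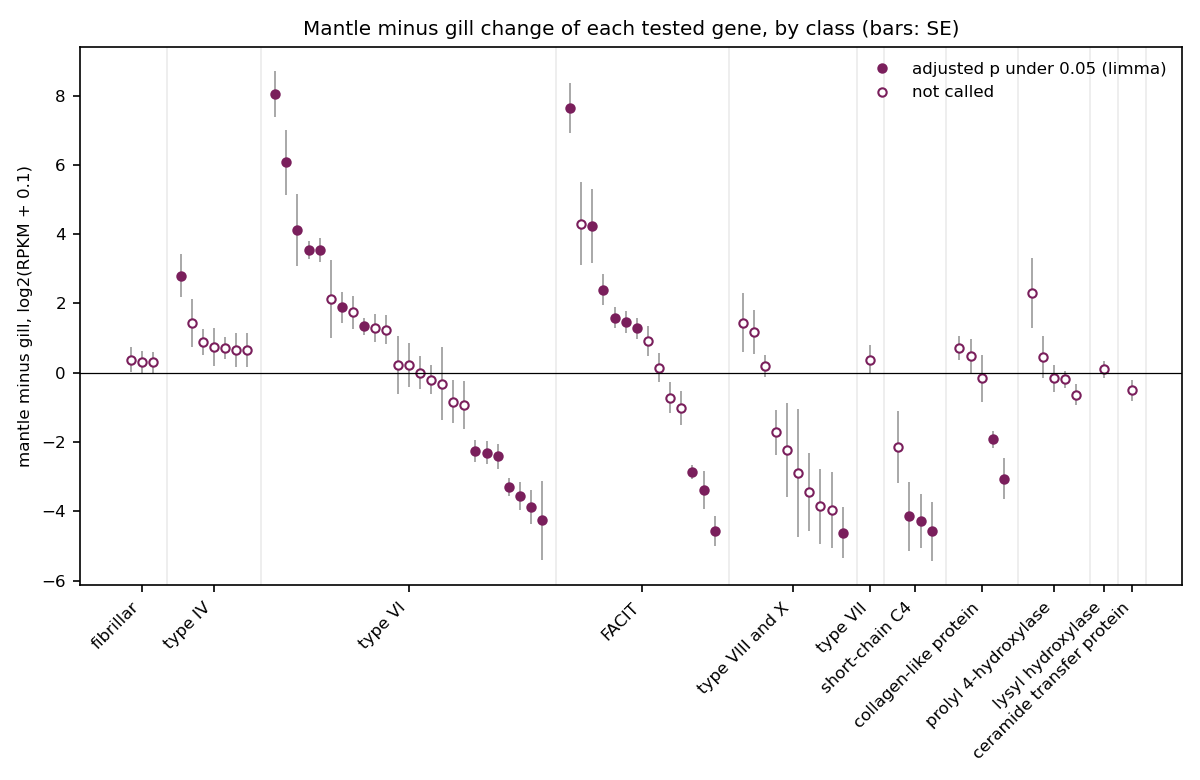
Change of the 76 tested collagen genes between tissues (log2, mantle minus gill, with bars of 1 SE from limma), grouped by class. Filled points passed an adjusted p of 0.05, 14 to the mantle side and 16 to the gill side, and none of the fibrillar chains or hydroxylases did.

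The most abundant collagen gene, the alpha-5(VI) chain OYG_10012008_10011384, had 932, 619.8, 436 and 593 RPKM in mantle, against 3009.9, 4832, 1312 and 4637 RPKM in gill. Every mantle lay below every gill, and the change was -2.30 ± 0.32 (SE) with an adjusted p of 0.00484 (limma). A pair of further alpha-5(VI) genes that share the second part of its identifier, OYG_10022103_10011384 and OYG_10022101_10011384, were also lower in every mantle than in every gill, with changes of -2.25 ± 0.31 (SE) (adjusted p = 0.00485) and -2.41 ± 0.36 (SE) (adjusted p = 0.00603). Reads could be split between such similar genes, so the 3 are not independent measurements. In gill all 3 were lowest in G2-L.

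The alpha-3(VI) chain OYG_10025212_10032818 had 544, 61, 246 and 46.6 RPKM in mantle, against 2417, 865, 2665 and 1316 RPKM in gill. Among the 10 most abundant collagen genes it was the one in which both exposed mantles were at least 2-fold above their unexposed counterparts. Every mantle still lay below every gill, with a change of -3.56 ± 0.40 (SE) and an adjusted p of 0.00276 (limma).

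The opposite held for the alpha-6(VI) chains OYG_10003289_10033212 and OYG_10022004_10033212. The first had 630.2, 1036, 988 and 1206 RPKM in mantle, against 25.01, 131, 167 and 78.6 RPKM in gill, with a change of 3.53 ± 0.35 (SE) and an adjusted p of 0.00223 (limma). The second had 504, 1042, 889 and 1124 RPKM in mantle, against 26.98, 104, 129.9 and 76.6 RPKM in gill, with a change of 3.55 ± 0.27 (SE) and an adjusted p of 0.00167. The groups did not overlap, and these chains had the highest mean levels of all collagen genes in mantle. The pair also shares part of its identifier.

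Other type VI chains were rarer, and some had no or few reads in one tissue. The alpha-3(VI) chain OYG_10015798_10027835 had 11.2, 63.05, 19.1 and 34.4 RPKM in mantle, against 0, 0, 0 and 0 RPKM in gill, that is 354 mantle reads and 0 gill reads, which puts it at least 124-fold higher in mantle against a floor of 3 reads over the gills. The alpha-3(VI) chain OYG_10020756_10006653 had 46.8, 7.403, 10.01 and 4.69 RPKM in mantle, against 0, 0, 0.732 and 0 RPKM in gill (adjusted p = 0.00683, limma), and its only gill reads came from G2-L. On the gill side, the alpha-3(VI) chain OYG_10007979_10011635 had 8.07, 2.93, 2.23 and 2.01 RPKM in mantle, against 64.5, 30.8, 28.5 and 19.8 RPKM in gill, a change of -3.30 ± 0.27 (SE) (adjusted p = 0.00188). The alpha-5(VI) chain OYG_10004818_10019896 had 4.01, 1.31, 0.9204 and 0.2096 RPKM in mantle, against 27.2, 13.3, 24.5 and 9.07 RPKM in gill, a change of -3.87 ± 0.49 (SE) (adjusted p = 0.00369). In both genes all mantles lay below all gills.

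The remaining type VI calls were smaller or rested on few reads. Higher in mantle were the alpha-3(VI) chain OYG_10003195_10028185 (1.88, adjusted p = 0.0351), the alpha-5(VI) chain OYG_10003288_10033211 (1.34, adjusted p = 0.0130) and the alpha-3(VI) chain OYG_10003196 (4.12, adjusted p = 0.0395). Lower in mantle was the alpha-4(VI) chain OYG_10025340_10011635, with 0, 0, 0 and 0.352 RPKM in mantle, against 7.12, 1.83, 3.75 and 1.04 RPKM in gill (adjusted p = 0.0496). The other 11 tested type VI chains did not pass.

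Of 14 tested FACIT chains, which in vertebrates decorate fibrils and alter how they pack, 6 were higher and 3 lower in mantle. The alpha-1(IX) chain OYG_10024583_10033434 had 67.2, 24.7, 10.9 and 16.4 RPKM in mantle, against 353, 214, 83 and 137 RPKM in gill, a change of -2.87 ± 0.20 (SE), which is 7.31-fold, with an adjusted p of 0.00167 (limma). Chains named alpha-1(XIV) went to both sides. OYG_10014498_10031568 had 44.5, 29.7, 65.5 and 36.9 RPKM in mantle, against 0, 0, 1.94 and 0 RPKM in gill (adjusted p = 0.00210), and its gill reads again came only from G2-L. OYG_10016880_10030931 had 4.98, 2.15, 2.105 and 0.599 RPKM in mantle, against 63.4, 44.05, 38.8 and 50.7 RPKM in gill, a change of -4.57 ± 0.45 (SE) (adjusted p = 0.00220). In these genes mantles and gills did not overlap, with chains of 1 name on opposite sides. Chains named alpha-1(XII) were split as well. OYG_10019228_10039121 (1.28, adjusted p = 0.0313), OYG_10022003_10017054 (2.40, adjusted p = 0.0135), OYG_10022006_10033208 (1.59, adjusted p = 0.0173) and OYG_10006681_10042098 (1.46, adjusted p = 0.0265) were higher in mantle. OYG_10004994_10034583 was lower, with 1.53, 0.823, 0.646 and 0.184 RPKM in mantle, against 8.88, 8.27, 7.08 and 7.06 RPKM in gill (adjusted p = 0.00825). The remaining call was the alpha-1(XIV) chain OYG_10014502_10023934 (adjusted p = 0.0406), which in gill had reads only in G2-L.

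Type IV chains, the sheet-forming collagens of basement membranes, leaned to the mantle without passing in most cases. All 7 tested chains had a positive change, between 0.66 and 2.80, but only the alpha-1(IV) chain OYG_10018033_10038153 passed (2.80, adjusted p = 0.0248, limma). The most abundant, the alpha-1(IV) chain OYG_10018042_10019611, had 122, 127, 77.1 and 92.9 RPKM in mantle, against 64.2, 62.5, 103 and 23.1 RPKM in gill. Its change was 0.88 ± 0.37 (SE) with an adjusted p of 0.165, and it passed without pool 2-L (1.32, adjusted p = 0.0260) and on recovered reads with limma voom (1.11, adjusted p = 0.0368). G2-L was the highest of its gills. The next in level, the alpha-1(IV) chain OYG_10018039_10019608, followed the same pattern with 68.2, 65.2, 39.96 and 41.5 RPKM in mantle, against 40.4, 33.01, 52.1 and 14.1 RPKM in gill (change 0.72 ± 0.32 (SE), adjusted p = 0.189).

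The 3 fibrillar alpha-2(I) chains, relatives of the main chain of vertebrate tendon and skin, were abundant in both tissues. OYG_10007860_10015235 had 246, 411, 106 and 399 RPKM in mantle, against 265, 282, 153 and 161 RPKM in gill, and OYG_10007862_10041512 had 150.3, 299, 74.04 and 309 RPKM in mantle, against 154, 216, 112 and 117 RPKM in gill. The third, OYG_10010906_10034703, had 82.1, 183, 38.97 and 177 RPKM in mantle, against 75.7, 110.3, 70.1 and 61.3 RPKM in gill. Tissues overlapped in all 3 genes, and the changes of 0.30 ± 0.31 (SE), 0.31 ± 0.32 (SE) and 0.38 ± 0.37 (SE) did not pass (adjusted p = 0.564, 0.571 and 0.537, limma). M2-L was the lowest mantle for each of them, and was at least 2-fold below every other mantle library for 10 of the 76 collagen genes (13.2%), a share near the 14.1% of all genes.

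Among the short-chain collagens, named after a sponge collagen, the tested genes lay on the gill side. The untested OYG_10009443_10022747 lay on the mantle side, with 2.76, 1.58, 1.16 and 1.33 RPKM in mantle, against 0, 0, 0.181 and 0 RPKM in gill. Of 4 tested, 3 were lower in mantle. OYG_10009309_10025083 had 13.6, 0, 4.11 and 0 RPKM in mantle, against 93.5, 6.07, 21.7 and 14.6 RPKM in gill (adjusted p = 0.0141, limma) and OYG_10011226_10025083 had 9.06, 1.63, 2.39 and 0 RPKM in mantle, against 62.9, 7.07, 24.6 and 34.8 RPKM in gill (adjusted p = 0.0357). Both share part of their identifier and were highest in G2-H. OYG_10000819_10004923 had 0, 0.814, 1.596 and 0 RPKM in mantle, against 5.66, 7.07, 11.9 and 4.47 RPKM in gill, with an adjusted p of 0.0126 that was above 0.05 without pool 2-H (0.0559) and without pool 1-L (0.0574).

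In vertebrates, chains of types VIII and X are short network-forming collagens that line vessels and growing cartilage. Among the 10 tested genes named after them, 1 passed. These gene models had inferred coding lengths of 336 to 603 bp, and whether they hold a collagen helix was not tested. This alpha-2(VIII) chain, OYG_10003934_10027550, had 2.78, 0, 4.401 and 0 RPKM in mantle, against 30.6, 5.78, 28.7 and 9.03 RPKM in gill, a change of -4.62 ± 0.74 (SE) with an adjusted p of 0.00792 (limma). Of the 5 tested collagen-like proteins, named after proteins of viruses and microbes, 2 were lower in mantle. They were OYG_10023592_10034281, with 52.6, 32.2, 20.6 and 17.1 RPKM in mantle, against 142, 95.9, 124 and 73.6 RPKM in gill (change -1.92, adjusted p = 0.00375), and OYG_10012006_10008824, with 20.96, 3.15, 4.12 and 1.76 RPKM in mantle, against 78.97, 59.8, 11.05 and 48.4 RPKM in gill (change -3.06, adjusted p = 0.0154).

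None of the 5 tested prolyl 4-hydroxylase subunits and not the lysyl hydroxylase passed between tissues. The prolyl 4-hydroxylase alpha-1 subunit OYG_10024994_10012831, which carries the catalytic activity, had 29.1, 21.1, 13.9 and 21.7 RPKM in mantle, against 38.3, 19.4, 23.01 and 18.4 RPKM in gill. A second alpha-1 subunit, OYG_10023114_10014798, had 22.9, 19.3, 16.7 and 12.7 RPKM in mantle, against 17.8, 10.1, 24.5 and 32.6 RPKM in gill, and another, OYG_10024543_10037252, had 12.1, 7.25, 12.5 and 8.94 RPKM in mantle, against 14.1, 16.9, 12.6 and 19.2 RPKM in gill. Tissues overlapped for the first and second, while the mantles of the last lay just below its gills. The changes were -0.19 ± 0.25 (SE), -0.15 ± 0.39 (SE) and -0.64 ± 0.31 (SE), with adjusted p-values of 0.653, 0.828 and 0.228 (limma). The sign of the first and second turned when libraries were scaled by their medians. The alpha-2 subunit OYG_10002066_10040899 and the alpha-1 subunit OYG_10015976_10037252 were rarer and had changes of 0.46 and 2.30 (adjusted p = 0.657 and 0.184). The lysyl hydroxylase OYG_10025850_10003369 had 38.2, 27.7, 20.7 and 27.2 RPKM in mantle, against 40.3, 22.9, 29.3 and 16.9 RPKM in gill (change 0.09, adjusted p = 0.839).

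Genes around the collagens were read from 3 lists made by words in the annotation. The counts stand beside 5.67% higher and 9.18% lower in mantle among all genes tested. Of 39 tested genes for the processing of procollagen, 5 were higher and 4 lower in mantle, in limma. Lower were lysyl oxidase-like protein 2 (OYG_10017884_10011693), of the family that cross-links collagens (-2.45, adjusted p = 0.00200), tolloid-like protein 1 (OYG_10016448_10027660), of the family that trims procollagen (-1.16), a peroxidasin-like protein (OYG_10009888_10020530, -1.17) and neuropilin and tolloid-like protein 1 (OYG_10018701_10034377, -1.15), which entered the list through the word tolloid and is a membrane protein rather than a procollagen protease. Higher were 4 further peroxidasins, which cross-link type IV collagen in other animals (OYG_10012307_10040968, OYG_10028272_10012082, OYG_10014927_10002599 and OYG_10014928_10008826, between 3.28 and 6.06), and a peptidyl-prolyl cis-trans isomerase B (OYG_10023851_10018076, 6.94, adjusted p = 0.00403), which helps the helix to fold. The other tested genes with this isomerase name did not pass, among them the most abundant, OYG_10027458_10029140 (0.28, adjusted p = 0.583, limma). Of 140 tested genes listed as other basement membrane and matrix proteins, 9 were higher and 31 lower in mantle. Some entered through the word fibronectin as names of a domain and need not be matrix proteins. Among the calls, these include OYG_10025612_10019199 (lower) and OYG_10017734_10005481 (higher). Their median change was -0.49, below the -0.21 over all genes. The list of collagen receptors took in genes named integrin or discoidin domain receptor, and whether each binds collagen was not tested. Of its 23 tested genes, integrin alpha-PS3 (OYG_10021391_10015413, 1.68) was higher, and integrin beta-1 (OYG_10003510_10004055, -2.29) and integrin beta pat-3 (OYG_10003509_10012084, -1.62) were lower. None of these genes passed in the comparisons of exposure or Cu class.

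Exposure was then compared within each tissue, between the high-Cu libraries (2-H and 1-H) and between the low-Cu libraries (2-L and 1-L). No collagen gene passed the adjusted p of 0.05 in limma. In mantle 0 of 76 passed, against 0.00497% of all genes, and 13 had an unadjusted p under 0.05, 9 higher and 4 lower (17.1%, against 9.26% of all genes). In gill 0 of 76 passed, against 0.0845%, and 14 had an unadjusted p under 0.05, 8 higher and 6 lower (18.4%, against 10.6%). The difference between the exposure effects in mantle and in gill also gave 0 calls, against 0% of all genes, with 15 at an unadjusted p under 0.05, 10 positive and 5 negative (19.7%, against 6.13%), and 0 with limma voom. The smallest adjusted p was 0.503, for the short-chain collagen OYG_10026803_10031099. Each contrast rested on 2 pairs with no replicate of a condition. The spread therefore came from how far the 2 pairs of a tissue disagreed, taken over both tissues. It had 2 residual degrees of freedom before limma's moderation.

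Counted by size alone, 12 collagen genes were at least 2-fold higher in the exposed mantle in both pairs (15.8%, against 3.77% of all genes). At least 2-fold lower were 2 (2.63%, against 4.23%). The counting interval was clear of no change in both pairs for 4 of the 12 and 1 of the 2. The alpha-3(VI) chain OYG_10025212_10032818 had the clearest values. It was at 544 RPKM in M2-H, against 61 RPKM in M1-H, and at 246 RPKM in M2-L, against 46.6 RPKM in M1-L. The pairs differed by 3.15 and 2.40 on the log2 scale, the change was 2.78 ± 0.28 (SE) with an adjusted p of 0.306, and with limma voom on recovered reads it was the 1 collagen gene that passed (adjusted p = 0.0109). In gill its pairs went the same way, by 1.48 and 1.02, with an adjusted p of 0.293.

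The other genes with clear intervals were the alpha-3(VI) chain OYG_10020756_10006653, at 46.8 RPKM in M2-H, against 7.403 RPKM in M1-H, and at 10.01 RPKM in M2-L, against 4.69 RPKM in M1-L, the collagen-like protein OYG_10022974_10012436, and the short-chain collagen OYG_10009309_10025083. Genes near 0 in unexposed mantle made up much of the rest. OYG_10009309_10025083 was at 13.6 RPKM in M2-H and 4.11 RPKM in M2-L, against 0 in M1-H and in M1-L. Its relative OYG_10011226_10025083 was at 9.06 RPKM in M2-H, against 1.63 RPKM in M1-H, and at 2.39 RPKM in M2-L, against 0 in M1-L. The alpha-2(VIII) chain OYG_10003934_10027550 was at 2.78 and 4.401 RPKM in the exposed mantles (4 and 6 reads), against 0 in both unexposed mantles. All 3 had higher levels in gill than in mantle within every pool. Across pools the tissues overlapped for OYG_10009309_10025083 and OYG_10011226_10025083, which in G1-H were at 6.07 and 7.07 RPKM, below M2-H. The 24 cilia genes that were lower in mantle summed to 1246 RPKM in M2-H and 962 RPKM in M2-L, against 1330 RPKM in M1-H and 1058 RPKM in M1-L. Some matrix genes that were lower in mantle than in gill did differ in the same direction as these collagens, and others went the other way. Hemicentin-1 (OYG_10007658_10018016) was at 177 RPKM in M2-H, against 14.6 RPKM in M1-H, and at 57.6 RPKM in M2-L, against 14.7 RPKM in M1-L. Fibrillin-3 (OYG_10006796_10010941) was at 73.9 RPKM in M2-H, against 1.74 RPKM in M1-H, and at 8.996 RPKM in M2-L, against 1.87 RPKM in M1-L. These genes were singled out after their values were seen, and whether gill RNA in the exposed mantles had a part was not tested.

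The fibrillar chains ran the other way in mantle. OYG_10010906_10034703 was at 82.1 RPKM in M2-H, against 183 RPKM in M1-H, and at 38.97 RPKM in M2-L, against 177 RPKM in M1-L. Both exposed mantles were below both unexposed mantles for all 3 chains. The changes were -1.67 ± 0.34 (SE) for OYG_10010906_10034703, -1.53 ± 0.32 (SE) for OYG_10007862_10041512 and -1.32 ± 0.32 (SE) for OYG_10007860_10015235, with adjusted p-values of 0.477, 0.477 and 0.482 (limma). Muscle genes also differed between these libraries, with a list of muscle genes summing to 2930 RPKM in M2-H and 3509 RPKM in M2-L, against 5909 RPKM in M1-H and 4258 RPKM in M1-L. Whether the amount of muscle in the pools or the low level of M2-L played a part was not tested, and fewer cells of a type and less RNA per cell cannot be told apart in pooled tissue. The alpha-2(VIII) chain OYG_10015544_10013168 was at 0 in both exposed mantles, against 0.744 RPKM in M1-H and 1.66 RPKM in M1-L.

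**Figure D3:**
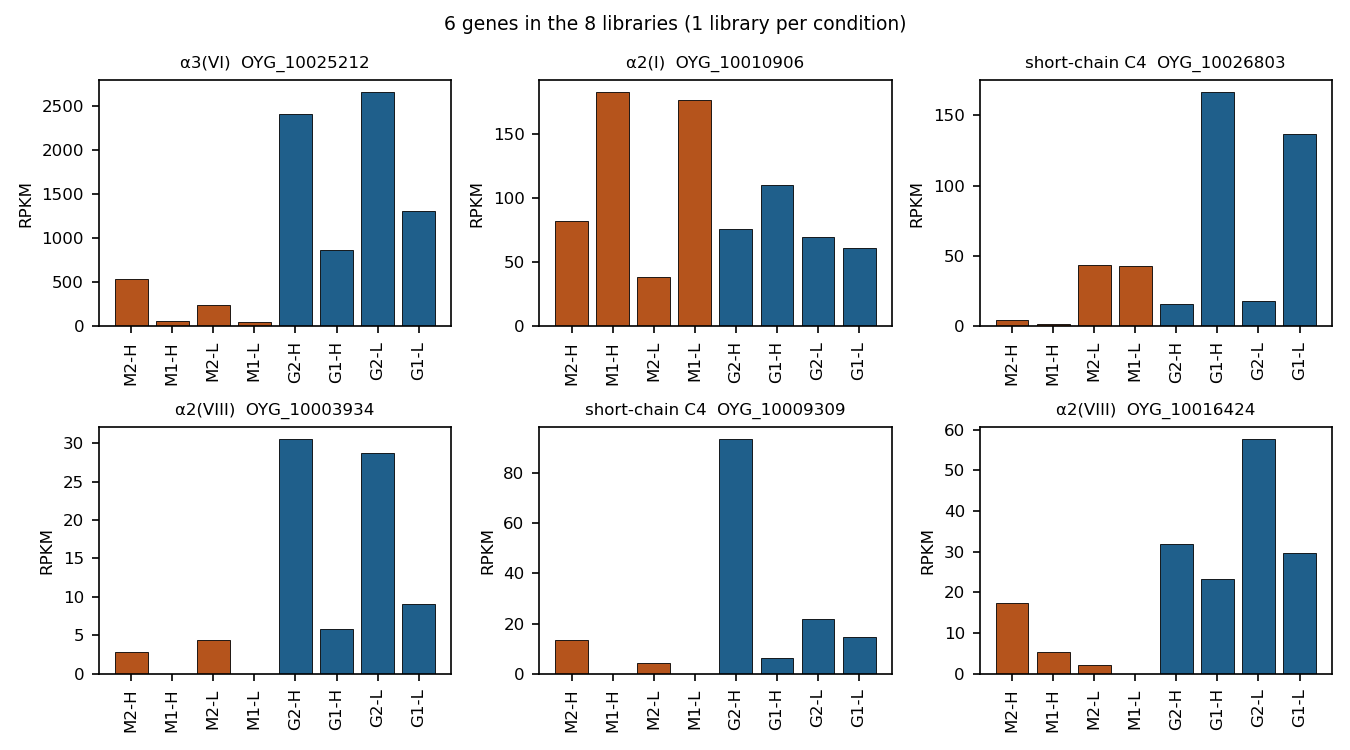
Level (RPKM, linear axes from 0) of 6 collagen genes in each library, exposed left of unexposed within each tissue and Cu class. The alpha-3(VI) chain OYG_10025212_10032818 was at 544 and 246 RPKM in exposed mantles, against 61 and 46.6 RPKM in unexposed mantles, and the short-chain collagen OYG_10026803_10031099 was low in both exposed gills.

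In gill, 5 collagen genes were at least 2-fold higher after exposure in both pairs (6.58%, against 3.94% of all genes). At least 2-fold lower were 5 (6.58%, against 4.61%). Counting intervals were clear of no change for 4 of the higher and 3 of the lower genes. The clearest was the short-chain collagen OYG_10026803_10031099. It was at 15.7 RPKM in G2-H, against 167 RPKM in G1-H, and at 18.3 RPKM in G2-L, against 137 RPKM in G1-L. The change of -3.15 ± 0.38 (SE) had an adjusted p of 0.0798 in limma, and it passed with limma voom (adjusted p = 0.0321) and when only genes of at least 5 RPKM were tested (adjusted p = 0.0452).

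The abundant alpha-5(VI) chain OYG_10012008_10011384 was at 3009.9 RPKM in G2-H, against 4832 RPKM in G1-H, and at 1312 RPKM in G2-L, against 4637 RPKM in G1-L. The change of -1.25 ± 0.38 (SE) did not pass (adjusted p = 0.371, limma). Both exposed gills lay below both unexposed gills, by far the most in G2-L, and the same order held for OYG_10022103_10011384 and OYG_10022101_10011384, which share its identifier part.

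The alpha-2(VIII) chains went both ways in the exposed gill. OYG_10015044_10037154 was at 0.6404 RPKM in G2-H, against 22.1 RPKM in G1-H, and at 4.04 RPKM in G2-L, against 39.6 RPKM in G1-L (-4.08 ± 0.75 (SE), adjusted p = 0.225, limma). OYG_10003934_10027550 was at 30.6 RPKM in G2-H, against 5.78 RPKM in G1-H, and at 28.7 RPKM in G2-L, against 9.03 RPKM in G1-L (2.02 ± 0.69 (SE), adjusted p = 0.399). OYG_10002101_10033487 had log2 differences of -2.06 and -2.67 in the high- and low-Cu pairs. Chains of other types were also higher in both exposed gills without passing, the alpha-1(XII) chain OYG_10009656_10009126 by 1.51 and 2.85 and the alpha-4(VI) chain OYG_10025340_10011635 by 1.91 and 1.76 in the high- and low-Cu pairs. The genes OYG_10004818_10019896 and OYG_10025212_10032818 complete the higher genes, and OYG_10025798_10038157 and OYG_10023716_10031331 the lower ones.

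**Figure D4:**
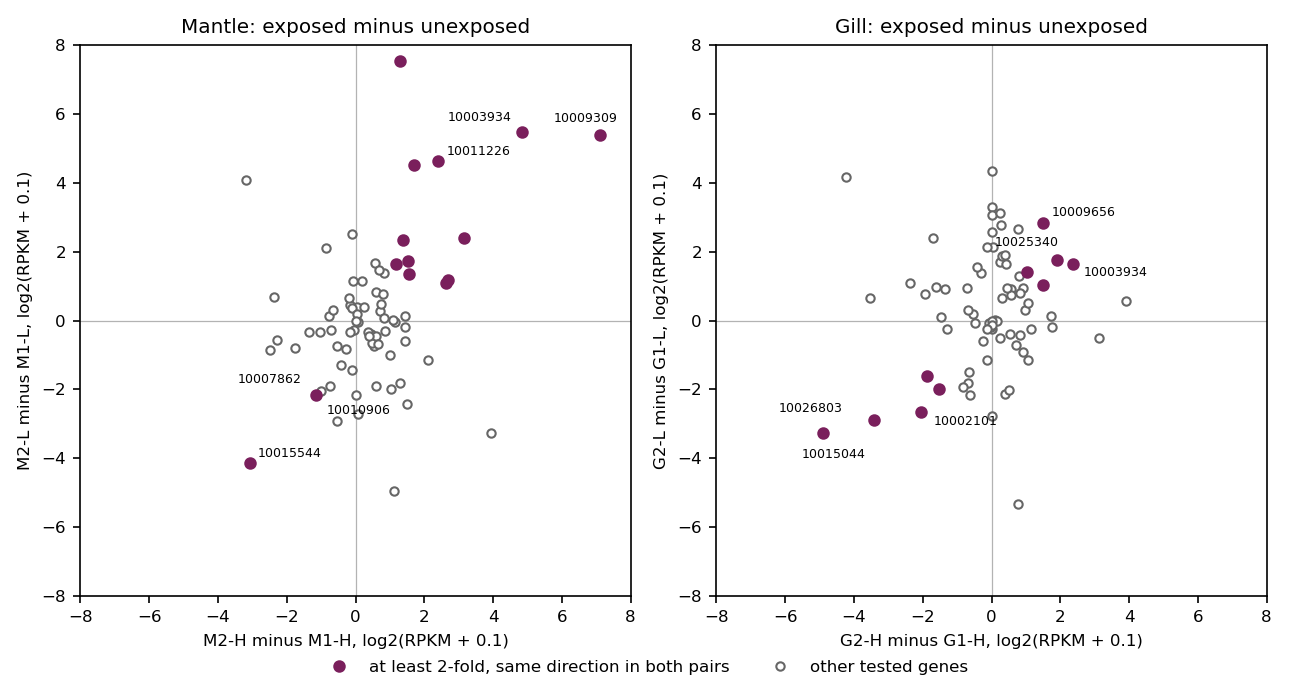
Log2 change of each tested collagen gene between exposed and unexposed libraries in the high-Cu pair (x axis) and the low-Cu pair (y axis), mantle in the left panel and gill in the right. Filled points were at least 2-fold apart in the same direction in both pairs, 12 higher and 2 lower in mantle and 5 higher and 5 lower in gill.

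Some chains stood apart in G2-L alone. In 9 of the 76 collagen genes G2-L was at least 2-fold above every other gill library, against 4.89% of all genes. They were alpha-1(XII) chains (OYG_10019228_10039121, OYG_10024253_10034774), alpha-1(XIV) chains (OYG_10014498_10031568, OYG_10014502_10023934), type IV chains (OYG_10018037_10038160, OYG_10025803_10038157), alpha-6(VI) chains (OYG_10020232_10021644, OYG_10020233_10030063) and the alpha-3(VI) chain OYG_10020756_10006653. In 7 genes G2-L was at least 2-fold below every other gill (9.21%, against 5.86% of all genes), among them the abundant alpha-5(VI) chains OYG_10012008_10011384, OYG_10022103_10011384 and OYG_10022101_10011384. Of the higher ones, OYG_10019228_10039121 was at 83.9 RPKM in G2-L and at 17.4, 17.4 and 8.42 RPKM in G2-H, G1-H and G1-L. Muscle genes were also highest in this gill, at 1542 RPKM against 760 to 996 RPKM in the others.

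Oysters with high and low Cu concentrations were compared within each tissue, among exposed (M2, G2) and among unexposed (M1, G1) animals. In mantle 0 of 76 collagen genes passed the adjusted p in limma, against 0% of all genes, and 10 had an unadjusted p under 0.05, 9 higher and 1 lower, the short-chain collagen OYG_10026803_10031099. That share of 13.2% was near the 12.2% of all genes. In gill 0 of 76 passed, against 0.00497%, and 7 had an unadjusted p under 0.05, 3 higher and 4 lower (9.21%, against 4.64% of all genes). Limma voom called 0 collagen genes in either tissue. The median change of the collagen genes in mantle was 0.51, against 0.18 over all genes.

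By size, 9 collagen genes were at least 2-fold higher in high-Cu mantle in both pairs (11.8%, against 5.02% of all genes). At least 2-fold lower were 4 (5.26%, against 2.95%). With libraries centred on their medians, which takes out the lower level of M2-L, the counts were 6 and 5. The counting interval was clear of no change for 3 of the 9 and 2 of the 4. The short-chain collagen OYG_10026803_10031099 had the clearest difference. It was at 4.33 RPKM in M2-H, against 43.8 RPKM in M2-L, and at 2.001 RPKM in M1-H, against 43.2 RPKM in M1-L (-3.84 ± 0.38 (SE), adjusted p = 0.364, limma). In gill its values of 15.7 RPKM in G2-H, against 18.3 in G2-L, and of 167 in G1-H, against 137 in G1-L, were close.

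The alpha-2(VIII) chain OYG_10016424_10003574 was higher in high-Cu mantle, at 17.4 RPKM in M2-H, against 2.21 RPKM in M2-L, and at 5.26 RPKM in M1-H, against 0 in M1-L (4.33 ± 0.71 (SE), adjusted p = 0.364, limma). The alpha-5(VI) chain OYG_10004818_10019896, lower in mantle than in gill, differed by 2.01 in the exposed and 2.19 in the unexposed mantles (adjusted p = 0.364). The short-chain collagen OYG_10011226_10025083 differed by 1.88 and 4.11 in the same pairs. Lower in high-Cu mantle, beside OYG_10026803_10031099, were the alpha-1(XIV) chain OYG_10018478_10012923, the prolyl 4-hydroxylase alpha-2 subunit OYG_10002066_10040899 and the alpha-6(VI) chain OYG_10023179_10013981. The hydroxylase subunit was at 2.37 RPKM in M2-H, against 10.02 RPKM in M2-L, and at 0.851 RPKM in M1-H, against 1.901 RPKM in M1-L, which rested on few reads.

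M2-H was at least 2-fold above every other mantle library for 13 of the 76 collagen genes, against 3.86% of all genes. Of these, 8 were lower in mantle than in gill, among them OYG_10024583_10033434, OYG_10016880_10030931, OYG_10007979_10011635 and OYG_10025212_10032818, 2 were higher in mantle (OYG_10020756_10006653 and OYG_10014502_10023934) and 3 had not passed between tissues. The cilia markers that were lower in mantle, chosen from these same libraries, summed to 1246 RPKM in M2-H, within the 962 to 1330 RPKM of the other mantles. The matrix genes OYG_10007658_10018016 and OYG_10006796_10010941, also lower in mantle, had their highest mantle level in M2-H. Whether gill RNA in M2-H had a part was not tested.

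In gill, 2 collagen genes were at least 2-fold higher with high Cu in both pairs (2.63%, against 2.31% of all genes). At least 2-fold lower were 3 (3.95%, against 3.13%). Both shares were near those of all genes. With centred libraries the counts were 1 and 3. The higher ones were the alpha-4(VI) chain OYG_10023716_10031331, at 1.4 RPKM in G2-H, against 0.09402 RPKM in G2-L, and at 4.24 RPKM in G1-H, against 0.677 RPKM in G1-L, and the alpha-1(XXI) chain OYG_10022005_10033210. The lower ones were the alpha-1(X) chain OYG_10026199_10022672, the prolyl 4-hydroxylase alpha-1 subunit OYG_10015976_10037252 and the alpha-2(VIII) chain OYG_10002101_10033487. The type X chain had reads only in the low-Cu gills, at 2.01 RPKM in G2-L (2 reads) and 14.5 RPKM in G1-L (12 reads). It was at 0 in the mantles as in the high-Cu gills, reached the filter through G1-L, and did not pass between tissues. For none of the 3 lower genes was the counting interval clear of no change in both pairs.

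**Figure D5:**
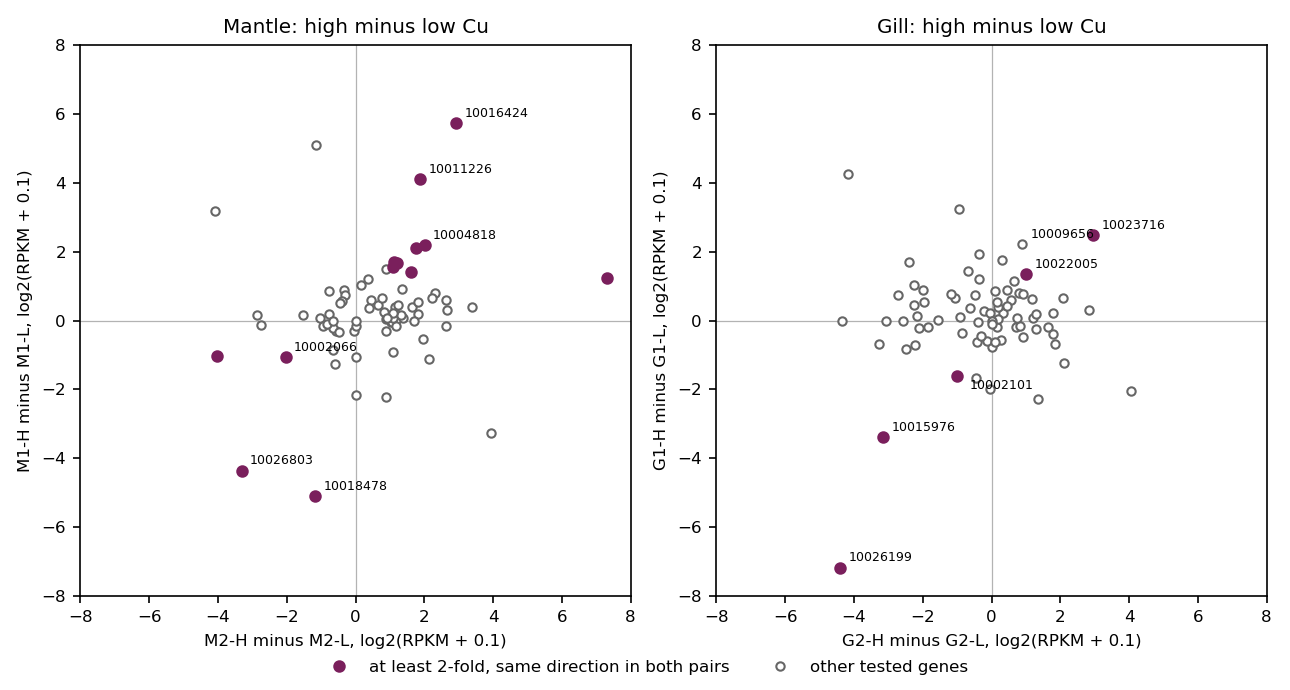
Log2 change of each tested collagen gene between high- and low-Cu libraries in the exposed pair (x axis) and the unexposed pair (y axis), mantle in the left panel and gill in the right. Filled points were at least 2-fold apart in the same direction in both pairs, 9 higher and 4 lower in mantle and 2 higher and 3 lower in gill.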

How the data were processed

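Gene expression in 8 pooled oyster libraries, 4 of mantle and 4 of gill, was read from the deposited table. The authors mapped the reads to the *C. gigas* genome and deposited RPKM values per gene. The submitters' processing notes name TopHat and Cufflinks, and the study's methods name tophat2, with no further version given in the sources used here. Groups came from the library labels, and exposure, dose and pool size from the study's methods.

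Members and gene lists were chosen with earlier results of these data known. Genes with a mean under 1 RPKM were left out (20123 of 25647 kept). The log2 of RPKM plus 0.1 was fitted with limma 3.58.1 (R 4.3.3) with an intensity trend. Tissue was tested with the oyster pool as a block, and exposure and Cu class within tissue in 1 additive fit over all 8 libraries. Adjusted p-values followed Benjamini and Hochberg across the tested genes. No condition had a replicate library, so p-values measure the spread between pools of different conditions. The pairing comes from the study's account of its pools, which in one place has gills and mantles of the same oysters and in another gills or mantles, so it is not certain. Libraries of a pool deviated together with correlations of 0.126, 0.252 and 0.177 in pools 1-L, 2-H and 2-L and of 0.0925 in 1-H. Fold counts took genes at least 2-fold apart in the same direction in every pair.

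Whole reads were recovered from the RPKM steps for 100% of 25181 genes with reads (within 0.01 of a read). They gave exact 95% intervals, a floor of 3 reads and a limma voom alternative. Steps were tested on simulated data. Other pseudocounts, filters, scalings and left-out pools were also tried.

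The genes named were the 10 with the highest mean level, the 5 higher and 5 lower with the largest smallest change over the 4 pools, the 3 higher and 3 lower by the same measure in each exposure and Cu comparison, and the prolyl 4-hydroxylases above the filter. Others were named, after their values were seen, to spell out a count. Identifiers of the collagen genes matched 0 entries of the RefSeq gene table, so no position or sequence is given. Tables were handled in pandas 2.3.3 under Python 3.11.15, intervals came from scipy 1.17.1, and figures were drawn in matplotlib 3.10.9.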

Additional observations from a re-analysis of the deposited data

Results flagged for a closer look

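Among the 36 named collagen genes, 4 were found in which both mantle pairs differed by Cu class in one direction and both gill pairs in the other. The share of all genes with this pattern was not counted, so 4 cannot be read as a result about the collagen genes. The difference between the tissues was not tested for any of them. The alpha-3(VI) chain OYG_10025212_10032818 changed by 0.77 in mantle and -0.37 in gill (high minus low Cu, log2), a difference of 1.14. The alpha-2(VIII) chains OYG_10002101_10033487 and OYG_10016424_10003574 had differences of 1.80 and 4.94, and the prolyl 4-hydroxylase subunit OYG_10023114_10014798 had 1.59.

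A single library stood far from the other 3 of its tissue in 5 of the 70 groups of 4 values that were examined by Dixon's test at its 95% level. Chance gives this in about 1 of 20 groups only where values are not tied. With the other 3 libraries at 0, a gene passes at any level, so the test shows nothing there. In gill these were the alpha-1(XIV) chain OYG_10014498_10031568 at 1.94 RPKM in G2-L (7 reads) and the alpha-3(VI) chain OYG_10020756_10006653 at 0.732 RPKM in G2-L (4 reads), each at 0 in the other gills. The alpha-2(VIII) chain OYG_10015544_10013168 was at 9.70 RPKM in G2-H. In mantle they were the alpha-4(VI) chain OYG_10025340_10011635 at 0.352 RPKM in M1-L (1 read, with 0 in the other mantles) and the prolyl 4-hydroxylase subunit OYG_10015976_10037252 at 5.91 RPKM in M2-L.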

How the results depend on the processing

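Of 576 alternatives for 47 values of named genes, 561 kept direction and side of the threshold, 9 reversed, 4 newly passed and 2 no longer passed, and the cause of these was not tested. The tissue comparison called 18 to 29 collagen genes with 1 pool left out, and 30 with no replicate block, the same as with the pool block. Its other alternatives gave 24 to 40. The count 4-fold apart in all 4 pools was 15. For exposure in gill, limma called 1 gene among genes of at least 5 RPKM and 1 with voom, and in exposed mantle 1 with voom. Single pairs pass more genes than both pairs by construction. Fold counts for exposure in gill were 3 at 4-fold and 26 to 39 in single pairs, and in mantle 8 with a pseudocount of 1, 5 at 4-fold and 33 to 37 in single pairs. For Cu class in gill they were 2 with a pseudocount of 1, 1 at 5 RPKM, 3 with quantile normalization, 3 at 4-fold and 20 to 37 in single pairs. In mantle they were 5 with a pseudocount of 1, 6 at 5 RPKM, 3 at 4-fold and 24 to 45 in single pairs.

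Reversed were small tissue changes that did not pass: OYG_10007860_10015235 (-0.031 to 0.58 over left-out pools, lowest without 1-L) and OYG_10007862_10041512 (-0.053 to 0.61, likewise), OYG_10024994_10012831 at 0.016 centred, 0.052 quantile-normalized and 0.018 with voom, and OYG_10023114_10014798 at 0.054 centred, 0.064 quantile-normalized, 0.047 with voom and -0.52 to 0.245 over left-out pools (highest without 1-L). With 1 library per condition, 2 pairs per contrast and 28 of the 116 genes under 10 reads, differences in rare chains could go undetected at this depth.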
